A study of Danio rerio with 12 samples.

Results

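The genes cd74a, cd74b and ifi30a belong to the machinery that loads peptides onto MHC class II molecules, and were taken by symbol, ignoring case, from a table of raw counts per gene. Each symbol matched 1 ID, so 3 of 35117 Ensembl gene IDs of the table are described, in all 12 tubes: cd74a (ENSDARG00000009087), cd74b (ENSDARG00000036628) and ifi30a (ENSDARG00000056378). RefSeq lists Iclp-1 and Iclp-2, for invariant chain-like protein, as other names of cd74a and cd74b, and GILT as another name of ifi30a.

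In antigen-presenting cells of mammals, the invariant chain CD74 binds new class II molecules in the endoplasmic reticulum, blocks their peptide groove and carries them to endolysosomes. There cysteine cathepsins cut CD74 away, and GILT, the product of IFI30, reduces disulphide bonds of engulfed proteins so that they can be unfolded and cut into peptides. CD74 also acts at the cell surface as a receptor for the cytokine MIF. In adult mammalian brain, class II genes are low in resting microglia and rise on activation, and IFI30 is known as a gene induced by interferon gamma.

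The series used Smart-seq2, which amplifies whole transcripts from very small inputs, on microglia of zebrafish brains at 3 dpf (days post fertilisation). All fish carried Tg(mpeg1:DsRedx), in which the macrophage promoter mpeg1 drives a red protein, and after about 10 embryo brains had been pooled and dissociated, 3 red cells were hand-picked into each tube. The 4 groups of 3 tubes were siblings, whose genotype is not given beyond that word, mutants of mafba, mutants of mafbb, and DMut, a label taken to mean that both genes were mutant. The sources used here do not name the mutant alleles. The mpeg1 promoter does not separate microglia from other macrophages, and the labels do not say if tubes of 1 genotype were filled from separate pools, so that p values measure the spread between tubes.

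Total counts were 10014888 to 17689266 per tube and 5100 to 10521 gene IDs had a count. Of 11 microglia marker IDs, siblings had counts of 11, each single mutant of 10 and DMut of 6, and in the last apoeb, apoc1, lgals3bp.1 and P2RY12 were at 0 in every tube. The summed level of those markers was 38440 to 69310 CPM (counts per gene scaled to a fixed effective library size) in sibling tubes and 927 to 1689 CPM in DMut tubes. The 7 markers shared by myeloid cells summed to 4989 to 6324 CPM in siblings and 7311 to 9247 CPM in DMut. By edgeR, 5 of the 10 microglia markers tested were called lower in DMut than in siblings, as were 0.462% of all tested genes. Of those 10, 9 were fitted lower and 1 higher. The microglia markers ccl34b.1, SLC7A7, csf1ra, csf1rb and havcr1 were counted in every DMut tube. csf1ra had 2517, 4087 and 1902 counts in DMut replicates 1 to 3 and 2672, 2147 and 1489 in siblings. P2RY12 was also at 0 in sibling replicate 1 and mafbb replicate 3. Of the 7 myeloid markers 1 was called higher, as were 0.252% of all tested genes, and marco was at 0 in every DMut tube. marco was also at 0 in mafbb replicates 2 and 3 and had 1 count in sibling replicate 1. The marker lists were chosen with earlier results of these data known, so these counts are no independent evidence. The mafbb tubes stood apart, with 5100 to 6141 genes counted and 0.662% to 0.798% of counts in spike-in RNA, against 7038 to 10521 genes and 0.0946% to 0.452% in the other 9 tubes. In bulk tubes of picked cells, fewer cells of a type and less RNA per cell cannot be told apart.

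ifi30a, the thiol reductase gene, was counted in all 12 tubes, was highest in siblings and was lower in DMut, 12.8-fold by the means. cd74b, an invariant chain gene, was counted in 5 of 12 tubes, all of them mafbb or DMut, and cd74a in 1 tube, of DMut. By edgeR the difference of ifi30a between DMut and siblings passed the test across all genes, and no difference of cd74b did. With DESeq2, an alternative with its own gene set and scaling, that of ifi30a did not pass (adjusted p = 0.11). DESeq2 passed cd74b against siblings in mafbb (adjusted p = 0.00606) and DMut (0.0296), and in DMut against mafba (0.0339). In that order DESeq2 called 1144, 604 and 362 genes, where edgeR called 7, 68 and 38. As cd74b was at 0 in every sibling and mafba tube, it was tested only because of its mafbb and DMut tubes. Of these, mafbb replicate 1 had 2 counts and DMut replicate 3 had 0.

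**Figure D1:**
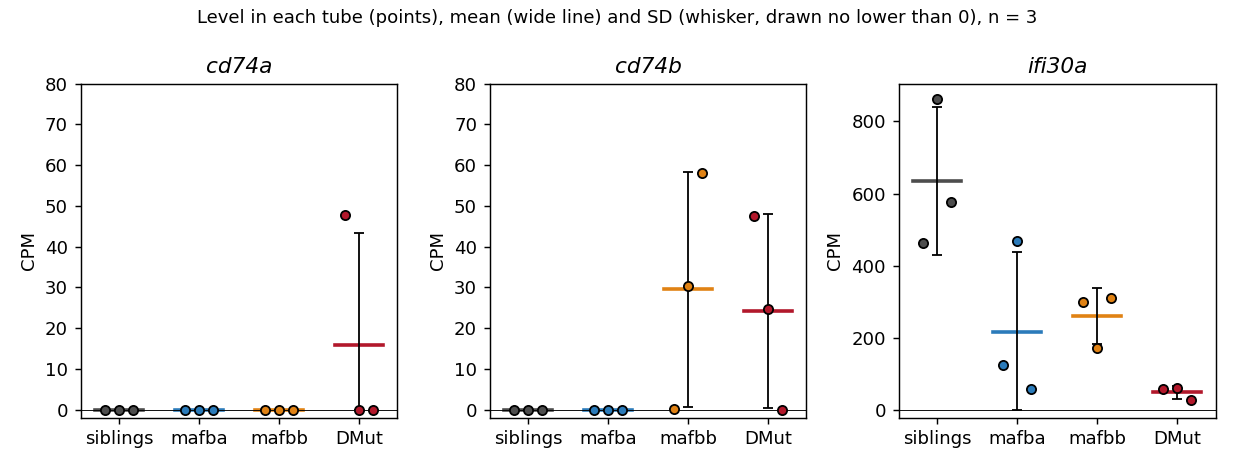
Levels of cd74a, cd74b and ifi30a in CPM (y axis, linear, a separate scale for ifi30a) in the 12 tubes by genotype (x axis), with each tube as a point, the mean as a wide line and the SD as a whisker. The ifi30a points of DMut lie at 28.0 to 62.8 CPM and those of siblings at 464 to 861 CPM, while cd74b is above 0 in mafbb and DMut tubes alone and cd74a in 1 DMut tube.

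ifi30a encodes the lysosomal thiol reductase. It had 464, 861 and 576 CPM in sibling replicates 1 to 3. It had 125, 470 and 58.4 CPM in mafba replicates 1 to 3. The mafba tubes were thus spread widely, with replicate 2 at the level of sibling replicate 1 and the other mafba tubes below every sibling tube. ifi30a had 300, 172 and 310 CPM in mafbb replicates 1 to 3. It had 58.1, 62.8 and 28.0 CPM in DMut replicates 1 to 3. All mafbb and all DMut tubes lay below every sibling tube, and all DMut tubes lay below every mafbb tube, while DMut and mafba overlapped, since mafba replicate 3 was as low as DMut. The raw counts behind the lowest and highest tubes were 261 in DMut replicate 3 and 8463 in sibling replicate 2. The counting error of reads was thus small beside the spread between tubes. Reads without molecular identifiers are not independent molecules, so the error from sampling few molecules is not covered by this.

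By the means, ifi30a stood at 634 ± 205 CPM (SD, n = 3) in siblings, 260 ± 77.1 in mafbb, 218 ± 221 in mafba and 49.7 ± 18.9 in DMut. The neighbours mafbb and mafba in this order did not differ beyond their spread, and mafba replicate 2 reached the sibling range. In siblings the coefficient of variation over tubes was 32.3%, beside a median of 35.6% for the 642 tested genes whose mean over the 12 tubes was within 2-fold of that of ifi30a. Of those 642 genes, 5.3% had a tube with 0 counts, and ifi30a had none.

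Against siblings, ifi30a in DMut fell by 3.67 on the log2 scale (SE 0.66), with an adjusted p of 0.000685 by edgeR's quasi-likelihood test. It was 1 of 44 genes called lower there, which is 0.462% of the 9519 genes tested (0.714% were called in either direction), and 7.33% of tested genes had every DMut tube below every sibling tube. In mafba the log2 fold change was -1.54 ± 0.60 (SE), which did not pass (adjusted p = 0.608), where 0% of tested genes were called by edgeR, 348 genes by DESeq2 and 37 by limma voom, 744 had an unadjusted p under 0.05 in edgeR and 3.7% had every mafba tube below every sibling tube. In mafbb it was -1.28 ± 0.60 and did not pass (adjusted p = 0.263), where 0.0735% of genes were called, 0.0525% lower, and 9.05% had every mafbb tube below every sibling tube. The means in the single mutants were 2.91-fold lower in mafba and 2.43-fold lower in mafbb than in siblings, differences that did not pass against the spread between tubes. In 8 of 9 mutant tubes ifi30a was below every sibling tube, as were 2.7% of tested genes in at least 8 of 9, and 0.756% in all 9. The call in DMut did not hold with spike-in scaling (adjusted p = 0.0523), with limma voom (0.0953) or with DESeq2 (0.11), while the log2 fold change lay between -3.92 and -3.37 in all 24 alternatives.

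The summed microglia markers, like ifi30a, were highest in siblings and lowest in DMut by their means. They stood at 11870, 63150 and 21450 CPM in mafba replicates 1 to 3, so that the mafba tube high in ifi30a was also the one high in microglia markers. In mafbb they were 17800 to 36430 CPM, and in DMut, where ifi30a was lowest, 927 to 1689 CPM. In siblings these sums came mostly from apoeb, with 23480, 45760 and 34400 CPM in replicates 1 to 3. It had 4282, 40530 and 8485 CPM in the mafba tubes, 21200, 23670 and 7537 in the mafbb tubes and 0 in DMut. The order within a genotype was not always shared, since mafbb replicate 3 had the highest ifi30a and the lowest marker sum of its group. The part of these markers in the ifi30a result was not tested.

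**Figure D2:**
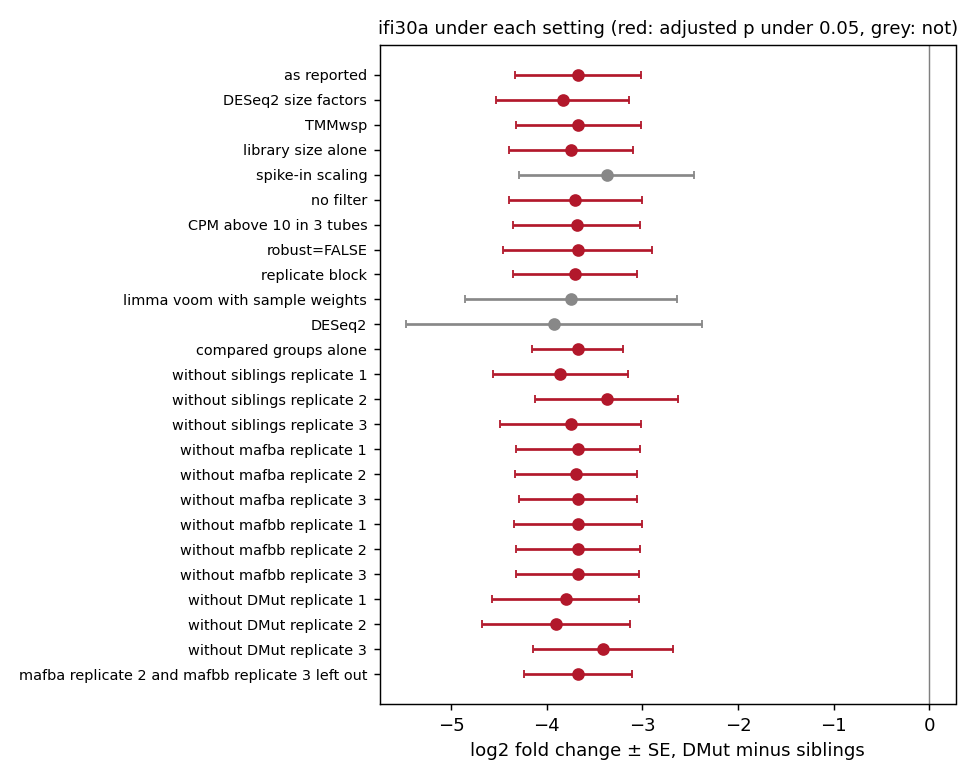
Log2 fold change of ifi30a between DMut and siblings with its SE (x axis) under each setting (y axis), in red where the adjusted p was under 0.05. The values lie between -3.92 and -3.37, and the 3 grey settings are spike-in scaling, limma voom and DESeq2.

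Whether the loss of both genes lowered ifi30a beyond the loss of either was read from DMut against each single mutant. Against mafbb, ifi30a was 5.25-fold lower in DMut by the means (log2 -2.39 ± 0.62, SE), just outside the threshold (adjusted p = 0.0503), where 0.725% of genes were called, 0.347% lower, and 3.68% had every DMut tube below every mafbb tube. Its adjusted p was 0.00351 with DESeq2 size factors, 0.0114 with TMMwsp, 0.0233 by library size alone and 0.0303 without a filter. These were among 5 of 12 other settings that passed, and the highest adjusted p of the 12 was 0.691. With 1 tube left out, 3 of 12 fits passed, and the highest adjusted p was 0.173. Against mafba it was 4.39-fold lower (log2 -2.13 ± 0.61, adjusted p = 0.174), where 0.399% of genes were called, 0.336% lower, and leaving out mafba replicate 2 moved the log2 value to -0.89 and leaving out replicate 3 to -2.58 (adjusted p = 0.035). With spike-in scaling the log2 value against mafbb was -0.69, while the median of all tested genes moved from 0.37 to 2.16, so that ifi30a minus that median was -2.76 in the reported scaling and -2.85 with the spike-ins.

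The sum of the single-mutant log2 fold changes of ifi30a was -2.82, and DMut stood at -3.67. The interaction, DMut minus mafba minus mafbb plus siblings, was -0.85 ± 0.84 (SE) with an adjusted p of 0.826 by edgeR. There 0.21% of genes were called, 12 of 9519 lower and 8 higher. A departure from the sum was therefore not shown, and its sign turned to 0.41 without mafba replicate 2. The 3 comparisons with siblings share the sibling tubes, so their values are not independent of each other.

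**Figure D3:**
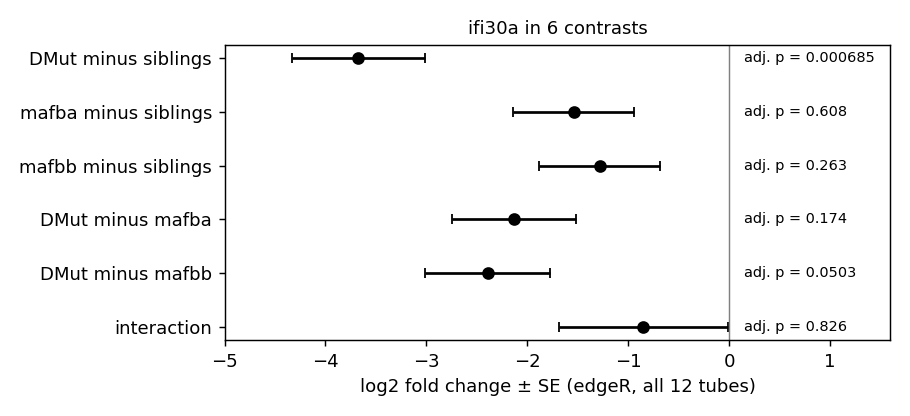
Log2 fold change of ifi30a with its SE (x axis) in the 6 contrasts (y axis), with the adjusted p of edgeR beside each. All 6 values are below 0, DMut minus siblings at -3.67 being the one past the threshold and DMut minus mafbb at -2.39 next to it.

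Its paralogue ifi30b (ENSDARG00000075629) had 0 counts in all 12 tubes. By counting error alone, 0 counts allow up to 0.0801 CPM in siblings and 0.0985 CPM in DMut, where the floor is 3 counts over the group. Reads without molecular identifiers are not independent molecules, so such floors cover counting error only.

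cd74b, an invariant chain gene, had 0 counts in all 3 sibling and all 3 mafba tubes. In mafbb it had 2, 406 and 1004 counts in replicates 1 to 3, which is 0.168, 30.2 and 58.0 CPM. In DMut it had 602, 210 and 0 counts, which is 47.6, 24.8 and 0 CPM. The gene was thus counted in 5 of 6 tubes of mafbb and DMut and in 0 of 6 tubes of siblings and mafba, with 1 of those 5 tubes at 2 counts alone. This grouping of genotypes was seen in the values and was not tested.

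The mean of cd74b was 29.5 ± 28.9 CPM (SD, n = 3) in mafbb and 24.1 ± 23.8 CPM in DMut. Against the floor of 3 counts over the group, 0.0801 CPM in siblings, it was at least 368-fold higher in mafbb and at least 301-fold higher in DMut, bounds that cover counting error only. Without mafbb replicate 3 the first was at least 189.7-fold, and without DMut replicate 1 or 3 the other was at least 154.5-fold or 452-fold. Neither passed by edgeR (adjusted p = 0.263 in mafbb and 0.393 in DMut), where 0.021% and 0.252% of genes were called higher. Every mafbb tube lay above every sibling tube, mafbb replicate 1 by 2 counts alone, while DMut replicate 3 was at 0. Of tested genes 2.52% had every mafbb tube above every sibling tube. As cd74b was tested only because of its mafbb and DMut tubes, this share does not measure how rare its pattern is. DESeq2 gave adjusted p = 0.00606 in mafbb and 0.0296 in DMut against siblings, and 0.0339 in DMut against mafba, where edgeR gave 0.614. In these contrasts, in that order, DESeq2 called 1144, 604 and 362 genes, where edgeR called 7, 68 and 38. DESeq2 was run on all 16088 gene IDs with a count and with its own size factors, so more than the test differs. Between DMut and mafbb the log2 fold change was -0.29 ± 3.28 (SE, adjusted p = 1), and its sign turned to 1.55 with spike-in scaling.

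Many genes at this level were at 0 in some tubes. Of 3670 tested genes with a mean within 2-fold of that of cd74b, 98% had 0 counts in at least 1 tube and 22.3% in at least 7 tubes, as cd74b did. After its values were seen, genes with 0 counts in all sibling and mafba tubes were looked for. Of 9519 tested genes, 8 or 0.084% had this and a count in at least 5 of the 6 mafbb and DMut tubes. Besides cd74b they included PXN, the gene of the focal adhesion protein paxillin, and enc3, JPH1, KLHDC4 and ugt2a6. That share is over all tested genes, not over the 818 genes near the level of cd74b with 0 counts in at least 7 tubes. cd74b itself passed the filter through its mafbb and DMut tubes alone. Whether the pattern is rare among such genes was not tested. The mafbb tubes had the fewest genes counted, and cd74b was counted in each of them, in replicate 1 by 2 counts alone. The part of the number of genes counted in this pattern was not tested.

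cd74a, the other invariant chain gene, had 603 counts (47.7 CPM) in a single DMut tube, replicate 1, and 11 tubes had 0 counts. The gene did not pass the filter on low counts and was not tested. Without the filter its adjusted p against siblings was 0.491, and DESeq2 gave none. In DMut replicate 1 the counts of cd74a and cd74b were 603 and 602, while the other 4 tubes with cd74b counts, up to 1004, had 0 of cd74a. The sources used here do not say how reads shared by the paralogues were counted. Of 16088 gene IDs with any count, 281 or 1.75% were counted in that tube alone.

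Markers of other cells that can carry class II genes were read in the same tubes. Of the 9 epidermal and metaphocyte marker IDs, metaphocytes being macrophage-like cells of the zebrafish skin, 5 to 6 were counted in each DMut tube, 2 to 3 in sibling and mafba tubes and 0 to 1 in mafbb tubes. Their summed level was 537 to 2056 CPM in DMut, 11.4 to 120 in siblings, 12.9 to 1582 in mafba and 0 to 63.4 in mafbb. In DMut replicate 1, the tube with cd74a, the epithelial adhesion gene epcam had 63 counts and 0 elsewhere, and the neutrophil lysozyme gene lyz had 16 counts and 0 elsewhere. Both genes were picked after their values were seen. That tube had 6 epidermal and metaphocyte IDs counted, against 5 in each other DMut tube. Its sum of them was the lowest in DMut, at 537 CPM against 567 and 2056 in replicates 2 and 3. The 8 neutrophil marker IDs summed to 1284 to 2638 CPM in DMut and 750 to 4476 in siblings. The cytokine gene il1b, which microglia express too, made 597 CPM of the sum in DMut replicate 1 and 1367 and 2198 in replicates 2 and 3, and nearly the whole sum in siblings. The granulocyte peroxidase gene EPX had 411, 213 and 185 CPM in the DMut tubes and 0 elsewhere. It was the 1 of 4 neutrophil markers tested that was called higher in DMut than in siblings, as were 0.252% of all tested genes. EPX passed the filter on low counts through its DMut tubes alone, so this call is no independent evidence. Of the 8 IDs, 4 to 6 were counted in DMut tubes and 1 to 2 in sibling tubes.

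Of the 7 B cell marker IDs, cd79b, ighm, PAX5 and cd37 had 0 counts in every tube and cd79a had a count in mafba replicate 1 alone. The summed B cell level was 0.0578 to 145 CPM in mafbb, 17.4 to 78.0 in DMut, 0.0677 to 39.0 in siblings and 0.274 to 52.4 in mafba. In siblings and mafbb it came from cd22 alone, and in DMut replicate 1 the kinase gene blk added 18.3 CPM. Of the 7 dendritic cell marker IDs, flt3, CCR7 and lamp3 were at 0 in every tube, and the sum was 239 to 900 CPM in DMut, 30.1 to 127 in mafbb, 29.9 to 222 in mafba and 0.0677 to 231 in siblings. In DMut it came mostly from ID2, which other cells express too, with 214, 900 and 766 CPM. The part of other cells in the cd74a and cd74b counts was not tested.

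Few genes of the class II molecule itself, which CD74 chaperones, were counted in any genotype. Of 13 MHC class II chain IDs, 2 had a count, and 1, mhc2d4b, was counted in all 12 tubes and tested. mhc2d4b had 106.5, 156 and 77.0 CPM in sibling replicates 1 to 3, while the DMut tubes had 54.4, 60.6 and 11.9. It had 141, 233 and 205 CPM in the mafba tubes and 89.2, 139.5 and 56.4 in the mafbb tubes. Every DMut tube was below every sibling tube, as for 7.33% of tested genes, and the log2 fold change of -1.42 ± 0.99 (SE) did not pass (adjusted p = 0.728). The classical beta chain gene mhc2dab had 959 counts in mafbb replicate 1, 1 in each other mafbb tube and 0 in all remaining tubes, and the alpha chain gene mhc2daa had 0 counts throughout. The mafbb tube with 959 counts of mhc2dab was the one with only 2 counts of cd74b, and the 5 tubes with cd74b had mhc2dab counts of 959, 1, 1, 0 and 0.

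Of the 22 IDs of regulators of class II genes, 14 were tested and 0 were called in any contrast with siblings by edgeR. ciita, the transactivator that switches on class II genes and CD74 in mammals, had 148 counts in DMut replicate 3, a single count in replicate 1 of the same genotype and 0 in all remaining tubes. DMut replicate 3, which held nearly all the ciita counts, had 0 counts of both cd74a and cd74b. rfx5, whose mammalian product binds the class II promoter, was counted in mafba replicate 3 alone with 214 counts. SPI1, the gene of the myeloid factor PU.1, had 825 ± 243 CPM in DMut and 307 ± 237 in siblings (adjusted p = 0.654). Its paralogue spi1a had 269 ± 164 and 438 ± 103 CPM, and IRF8, a factor that microglia need, 58.8 ± 82.4 and 114.5 ± 76.2 CPM.

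Of the 18 IDs of endolysosomal proteases, which cut antigens and the invariant chain, 15 had a count and 12 were counted in all 12 tubes. The 4 with the highest means were abundant in every genotype. Of 18 IDs, 13 were tested and 0 passed in DMut, mafba or mafbb against siblings. Their median log2 fold change in DMut was -0.08 beside 0.07 for all tested genes. CTSB, cathepsin B, had 5395 ± 975 CPM in siblings and 4552 ± 2014 in DMut, and CTSD, cathepsin D, 2949 ± 462 and 2406 ± 2167. ctsla, a cathepsin L gene, had 4098 ± 1089 CPM in siblings and 1175 ± 1176 in DMut (adjusted p = 0.402), and CTSK, cathepsin K, 806 ± 203 and 3380 ± 2859 (adjusted p = 0.393). Cathepsin S is the main enzyme that trims the invariant chain in mammalian B and dendritic cells, and the list held 3 zebrafish genes named after it, given here after their values were seen. ctss1 had 0.859 CPM in DMut replicate 3 and 0 elsewhere, and ctss2.2 had 157, 304 and 185 CPM in the DMut tubes and 115.5, 93.2 and 51.6 in sibling tubes. ctss2.1 had 2133, 4038 and 3261 CPM in the DMut tubes and 585, 1352 and 1067 in sibling tubes. Every DMut tube was above every sibling tube for ctss2.1 and ctss2.2, as for 9.86% of tested genes, and the adjusted p of ctss2.1 was 0.563. Other list members went the other way, with every DMut tube below every sibling tube for LGMN, CTSZ and ctsla, as for 7.33% of tested genes. LGMN had 308, 1268 and 1164 CPM in the DMut tubes and 2153, 1900 and 2879 in sibling tubes. CTSZ had 452, 1871 and 1256 CPM in the DMut tubes and 2724, 2008 and 2193 in sibling tubes. In mafbb LGMN had 725.5, 664 and 782 CPM, ctsla 1061, 872 and 3014 and CTSZ 2295, 578 and 1778. In mafba LGMN had 1074, 4228 and 2191 CPM, ctsla 1331, 4765 and 1669 and CTSZ 1460, 3684 and 2276. For LGMN and ctsla every mafbb tube was also below every sibling tube, as for 9.05% of tested genes. Their low level was thus not particular to DMut. In mafba replicates 1 to 3 ctss2.2 had 224, 137 and 209 CPM, and in mafbb 88.3, 219 and 257, so its level in DMut was not particular to DMut. ctss2.1 had 104, 622 and 967.5 CPM in the mafba tubes and 258, 222.5 and 1380 in the mafbb tubes. Of the 3 cystatins, inhibitors of cysteine cathepsins, 3 were tested and 0 passed, and cst14a.2, the highest of them in CPM, had 523 ± 33.9 CPM in siblings and 465 ± 218 in DMut.

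Other enzymes that act on protein disulphides gave no call. Of 17 thiol oxidoreductase IDs, 14 were tested and 0 passed against siblings in any mutant group, with a median log2 fold change of -0.04 in DMut beside 0.07 for all tested genes. The thioredoxin gene TXN had 677 ± 68.7 CPM in siblings and 720 ± 142 in DMut. PDIA3, a disulphide isomerase of the endoplasmic reticulum that takes part in class I loading, had 700 ± 130.5 CPM in siblings and 419 ± 220.5 in DMut, and PDIA6 434 ± 246 and 398 ± 125.

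The interferon response list held the only gene of the 10 pathway lists that was called in any of the 6 contrasts. Of its 28 IDs 14 were tested, 0 were called higher and 1 lower in DMut against siblings. gbp2, a guanylate-binding protein gene induced by interferon, had 117, 46.2 and 194 CPM in sibling replicates 1 to 3 and 0 counts in DMut throughout, at least 1208-fold lower by the floor (adjusted p = 0.00711). Against DMut it was also higher in mafba, at 58.7 ± 51.3 CPM (adjusted p = 0.0142), and in mafbb, at 91.9 ± 125.5 CPM (adjusted p = 0.00953). The mafba tubes had 0.107, 79.8 and 96.0 CPM in replicates 1 to 3, the first from 2 counts alone. The mafbb tubes had 236.7, 23.4 and 15.6 CPM, so that replicate 1 made most of that mean. The calls against mafba and mafbb did not hold with robust=FALSE (0.101 and 0.0505) or with the compared groups alone (0.417 and 0.15), nor did that against siblings with robust=FALSE (0.0516). Against mafba the call was also lost with limma voom (0.14) and without sibling replicate 3 (0.0683), mafbb replicate 1 (0.0671), DMut replicate 1 (0.0744) or DMut replicate 2 (0.0608). Against mafbb it was also lost without mafbb replicate 1 (0.0739). Its neighbour in name gbp1 had 195 ± 155 CPM in siblings and 59.6 ± 16.6 in DMut, the interferon gamma receptor gene ifngr2 163 ± 67.55 and 98.4 ± 12.02, and the kinase gene JAK1 332 ± 157.5 and 209.5 ± 87.8.

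Genes of the class I route and of MIF signalling gave no call. Of 23 class I chain IDs 8 were tested, and of 21 class I processing IDs 14, with 0 past the test in any mutant group against siblings. mhc1lda, a class I chain gene of the L lineage, had 133, 164 and 168 CPM in the DMut tubes, 42.8, 0.102 and 0 in siblings, 31.4, 0 and 0 in mafba and 0 in every mafbb tube. Its DMut tubes lay above every other tube, as for 2.74% of tested genes (9.86% had DMut above every sibling tube and 13.5% above every mafbb tube), and its adjusted p was 0.822 against siblings and 0.105 against mafbb. Of the 10 IDs of the MIF axis 4 were tested and 0 passed: MIF itself had 26.8 ± 13.45 CPM in siblings and 23.9 ± 14.4 in DMut, and cd44b, related to the partner of CD74 in MIF signalling in mammals, 0 and 43.85 ± 59.4 CPM. In the single mutants cd44b had 12.7 ± 14.6 CPM in mafba and 37.0 ± 33.9 in mafbb. Of the 12 costimulation and dendritic cell IDs 6 were tested and 0 passed. cd83, a surface marker of activated antigen-presenting cells, had 1463 ± 851 CPM in siblings and 1860 ± 1162 in DMut, and cd40 16.0 ± 26.5 and 89.6 ± 17.05. For cd40 the single mutants had 30.3 ± 35.9 CPM in mafba and 113 ± 90.0 in mafbb. Over the 10 lists, 1 of 89 distinct tested IDs, or 1.12%, was called between DMut and siblings, beside 0.714% of all tested genes.

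**Figure D4:**
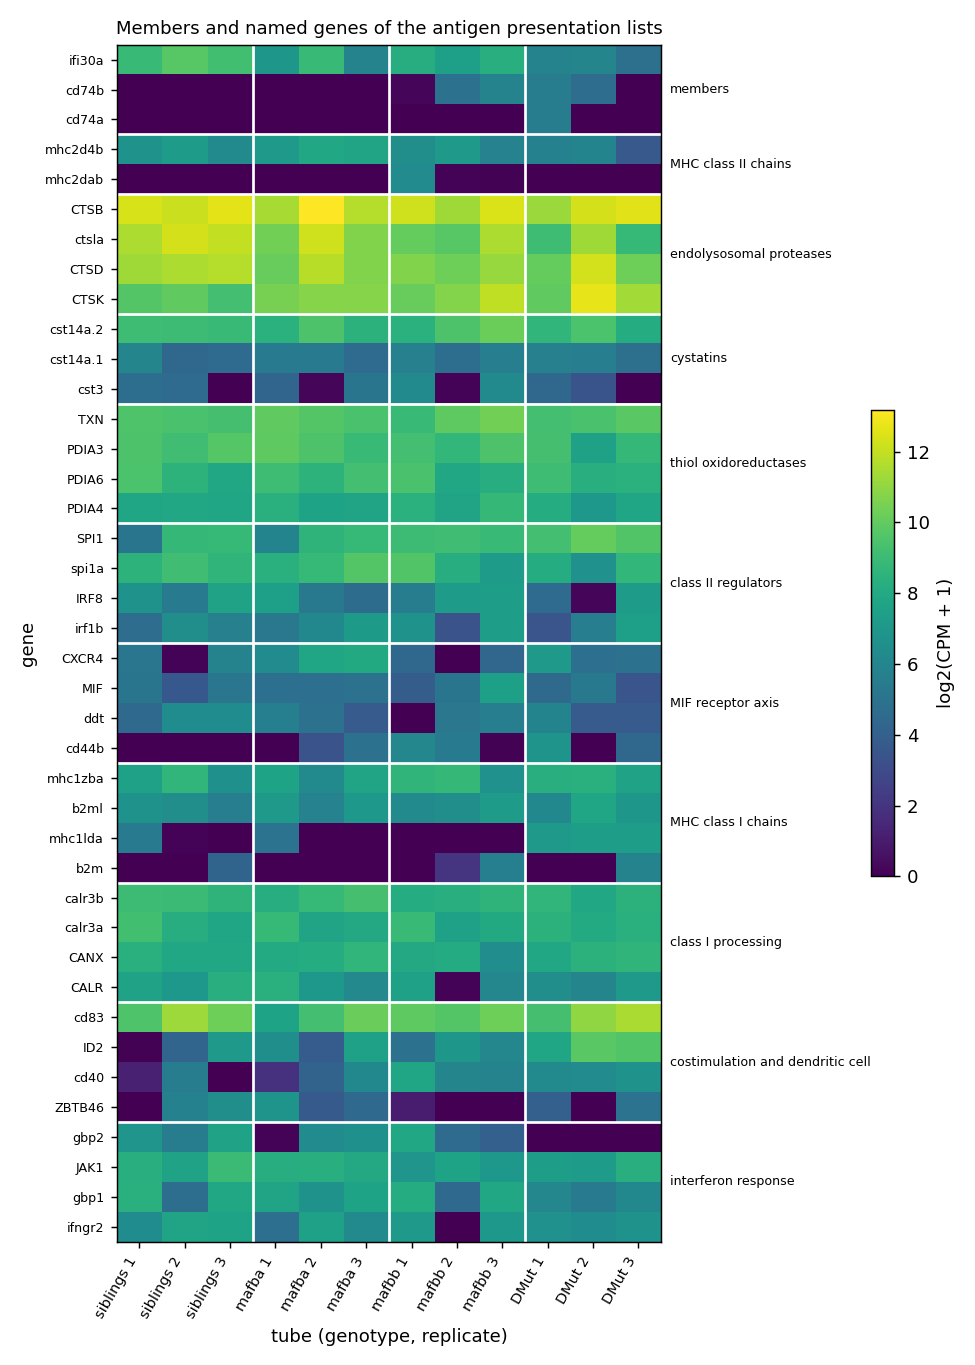
Levels as log2(CPM + 1) (colour) of the 3 members and the named genes of the 10 lists (rows) in the 12 tubes (columns, by genotype and replicate). The proteases and thiol oxidoreductases are bright in all genotypes, and cd74a, cd74b, mhc2dab and mhc1lda are dark in most tubes. ifi30a is darker in every DMut tube than in every sibling tube, and mafba replicate 3 is as dark as DMut.

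The genes most like ifi30a over the 12 tubes, by Pearson's r of log2(CPM + 1), were CCDC127 (r = 0.91), FARP1 (0.90), kctd12.2 (0.89), NPC2 (0.86) and ABCC5 (0.86). NPC2, which carries cholesterol out of lysosomes, stood at 4093 ± 671 CPM among siblings, 2713 ± 1338 among mafba, 2318 ± 1195 among mafbb and 813 ± 229 among DMut tubes. kctd12.2 had 653 ± 96.9, 361 ± 119, 376 ± 166 and 68.6 ± 23.6 CPM in the same order. CCDC127 had 78.4 ± 8.21 CPM in siblings and 0 in DMut. The genes most like cd74b were ARHGEF18 (r = 0.92), fcer1gl (0.89), hamp (0.85), ELP2 (0.80) and SELENOK (0.80). fcer1gl, named after the gamma chain of Fc receptors, stood at 1036 ± 231, 1101 ± 140, 1616 ± 777 and 1817 ± 540 CPM in that same order of genotypes. hamp, the gene of the iron hormone hepcidin, had 84.0 ± 132 CPM in mafbb, 48.4 ± 69.7 in DMut, 2.71 ± 4.70 in siblings and 0 in mafba. These correlations describe 12 tubes that share genotype and library differences and carry no test.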

How the data were processed

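The authors deposited raw counts, whole numbers per gene and tube, for 35117 Ensembl gene IDs and 92 spike-in sequences. The submitters' processing notes name Trim Galore, STAR and the build GRCz11. Versions, the counting tool, its annotation, strand and handling of shared reads: not given in the sources used here. Symbols came from a table of gene IDs.

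From the counts, genes kept by filterByExpr (minimum count 10, minimum total 15; 9519 genes, no spike-ins) were scaled by TMM and fitted over all 12 tubes, with a term per genotype, by edgeR 4.0.16 in R 4.3.3 (quasi-likelihood, robust=TRUE). A gene was called where its p, adjusted by Benjamini-Hochberg over all genes tested, was under 0.05. The SE of an edgeR log2 fold change was derived from its test, as its size over the square root of the quasi-likelihood F statistic. CPM use TMM effective library sizes, and a group at 0 was given a floor of 3 counts. The common dispersion was 4. DESeq2 1.42.0 and limma 3.58.1 were alternatives. limma used the same 9519 genes and TMM. DESeq2 used all 16088 gene IDs with a count and its own size factors. Its calls and adjusted p values thus differ from those of edgeR in gene set and scaling as well as in test. The fit was tested on simulated data with changed genes of known size: all were called at a low dispersion, and none where every gene was given the common dispersion. Genes differ in dispersion, and a gene not called may still differ. Of 277 list entries, 46 had no match. Up to 4 genes per list were named, called ones first and then by mean CPM, with the 5 most like each tested member; cd74a, counted in 1 tube, has none. Any gene named outside this rule was chosen after its values were seen. Members and lists were chosen with earlier results of these data known. No columns of the table were left unmapped.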

Additional observations from a re-analysis of the deposited data

How the results depend on the processing

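The fall of ifi30a from siblings to DMut passed in 21 of 24 alternatives, and was -3.37 (log2) with spike-in scaling, -3.75 with limma voom and -3.92 with DESeq2 where it did not. Leaving out 1 tube gave -3.90 to -3.37, each past the threshold. Against mafbb its value was -3.19 with DESeq2 size factors, -2.84 with TMMwsp, -2.59 by library size alone and -2.44 without a filter, all past the threshold. Of 12 settings other than leaving out 1 tube, 5 passed there. With 1 tube out it was -2.62 to -2.11, 3 of 12 past the threshold. Against mafba that range was -2.58 to -0.89, in the interaction -1.30 to 0.41, in mafba minus siblings -2.81 to -1.09 and in mafbb minus siblings -1.46 to -0.97. With mafba replicate 2 and mafbb replicate 3 both out, the interaction was 0.54. With DESeq2 the fitted log2 values of cd74b, which are no bounds, were 10.45 (DMut minus siblings), 11.74 (mafbb minus siblings) and 10.84 (DMut minus mafba), past the threshold. In edgeR with 1 tube out these contrasts gave 10.32 to 11.90, 10.57 to 12.16 and 10.32 to 11.90, none past it. Between DMut and mafbb cd74b was 1.55 with spike-in scaling, 0.67 with both those tubes out and -1.25 to 0.67 with 1 tube out. The causes were not tested.

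Calls numbered 68, 0, 7, 38, 69 and 20 in DMut, mafba and mafbb against siblings, DMut against mafba and mafbb, and the interaction. In that order they were 604, 348, 1144, 362, 1135 and 860 with DESeq2, 370, 37, 186, 160, 442 and 39 with limma voom and 115, 12, 36, 77, 134 and 61 without a filter. With robust=FALSE they were 36, 0, 3, 22, 43 and 20, and with spike-in scaling 47, 3, 70, 32, 366 and 60. With the compared groups alone mafba gave 3 and mafbb 24 against siblings, with DESeq2 size factors mafba gave 1, with the filter of CPM above 10 mafbb gave 2, and with both tubes out they gave 5 and 15. Leaving out 1 tube gave 44 to 86, 0 to 2, 4 to 24, 23 to 41, 52 to 87 and 11 to 39.

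With the replicate block, calls numbered 123, 11, 22, 76, 125 and 48, and ifi30a in DMut minus mafbb was -2.59 (adjusted p = 0.00425 by edgeR). Equal replicate numbers did not pair the tubes: 18 correlations of deviations lay between -0.03 and 0.04, a tube was most like its own number in 12 of 36 cases, and the sources give no shared origin for a number. The common dispersion was 4 and each tube held 3 cells, and the part of either in the results of low genes such as cd74b was not tested.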
